A study of Mus musculus with 6 samples.

Results

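The baseline transcriptome of the wild-type mouse enamel organ was read from the 3 libraries that the labels name WT, out of 6 libraries in the series. The other 3 libraries came from mice lacking Stim1 and Stim2 and entered no value given here. Each WT library was made from enamel organ cells of the lower incisors of C57BL/6 mice with the label Wild Type, and no allele, transgene or agent is named for them. Neither age, the number of animals behind a library nor a separate origin of the replicates is given, so the spread between libraries given here may be partly technical. Cells went into lysis buffer directly after isolation, and libraries were built from 500 ng of total RNA with a kit that keeps no strand information. Total gene counts were 22829411 in WT 1, 21127654 in WT 2 and 22053485 in WT 3. Of 46603 genes in the tables, 18075 had at least 1 count in each library, 22792 had no count in any, and 12219 had a mean of at least 50 counts. Xist, the RNA that coats the silent X chromosome of female cells, stood at 823 and 933 CPM (counts scaled to a library of 1e6) in WT 1 and WT 2 and at 1.23 in WT 3. Ddx3y, a Y-linked helicase, had 3, 0 and 1240 counts in the same order, so the 3 libraries did not all come from 1 animal. WT 3 differed from WT 1 and WT 2 in these sex-linked genes, so sex and other traits of WT 3 cannot be told apart. No comparison between groups was made, and the values below are descriptions of 1 group of 3 libraries.

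Enamel is laid down by ameloblasts, tall epithelial cells of the enamel organ that pass through a secretory stage and then a maturation stage. Secretory ameloblasts release amelogenin, ameloblastin and enamelin together with the protease Mmp20, and the mineral grows within that matrix. Maturation ameloblasts change their product to Odam, amelotin and the protease Klk4, remove the broken-down matrix and move calcium, bicarbonate and, in rodent incisors, iron. The mouse incisor grows throughout life, so its enamel organ holds stem cells and every stage of the lineage side by side, with the stratum intermedium and papillary layer beneath the ameloblasts.

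The label of the tissue was checked against marker genes. All 17 genes of a dental epithelium list had a mean FPKM of at least 1, where FPKM is the number of fragments relative to transcript length and library size. Krt14 and Krt5, the keratins of basal epithelial cells, led that list at 2532 ± 258 and 2348 ± 190 FPKM (SD, n = 3). All 10 genes of a secretory ameloblast list and all 13 matched genes of a maturation ameloblast list were present as well. All 15 mesenchyme, 12 endothelium and 16 leukocyte genes listed also reached 1 FPKM, as did 11972 of 21624 protein-coding genes. Presence at that level therefore does not single out epithelium. The cartilage genes were near the floor, with none of the 5 listed genes at 1 FPKM and a summed level of 1.73 to 2.29 CPM. Genes of connective tissue, vessels, blood and muscle were present at levels given further below, so the material was epithelium with other cells. In such bulk RNA, fewer cells of a type and less RNA per cell cannot be told apart.

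Ambn and Amelx, the genes of ameloblastin and amelogenin, had the highest counts of all genes, followed by Odam. Of 9 enamel matrix and protease genes, 5 had 1 short stretch of letters in common just before the start of transcription. The 120 bases that precede each start, from RefSeq on GRCm38.p6, are shown because these 5 genes gave the bulk of the enamel counts. Capitals mark TGATTGG, which is the CCAAT box read on the opposite strand with 2 further letters, and each sequence runs 5′ to 3′ on the strand of its gene.
Ambn, chr5:88455871-88455990, plus strand: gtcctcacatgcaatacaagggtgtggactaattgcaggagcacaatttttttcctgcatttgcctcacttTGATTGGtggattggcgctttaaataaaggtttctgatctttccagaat
Amelx, chrX:169187210-169187329, minus strand: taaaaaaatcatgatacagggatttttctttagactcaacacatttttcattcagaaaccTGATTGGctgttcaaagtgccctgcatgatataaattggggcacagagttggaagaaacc
Odam, chr5:87884890-87885009, plus strand: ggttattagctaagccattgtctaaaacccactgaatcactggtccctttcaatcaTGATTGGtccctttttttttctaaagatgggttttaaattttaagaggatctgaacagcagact
Amtn, chr5:88375988-88376107, plus strand: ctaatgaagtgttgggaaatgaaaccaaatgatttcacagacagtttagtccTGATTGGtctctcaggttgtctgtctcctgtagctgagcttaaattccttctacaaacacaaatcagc
Enam, chr5:88487855-88487974, plus strand: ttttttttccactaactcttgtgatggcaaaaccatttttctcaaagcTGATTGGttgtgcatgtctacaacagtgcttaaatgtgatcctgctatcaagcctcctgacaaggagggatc
The stretch began 49 bases before the start in Ambn, 60 in Amelx, 64 in Odam, 68 in Amtn and 72 in Enam. RefSeq windows of 300 bases, from 250 before to 50 after a start, were matched for all 9 genes, with Gm1045 entered there as Odaph. Klk4, Mmp20, Gm17660 and Odaph did not hold TGATTGG or its reverse CCAATCA. Of all 32851 RefSeq windows of that length, 7.82% held it on either strand and 4.01% on the strand of the gene. It began between 90 and 40 bases before the start, on the strand of the gene, in 1.54% of all windows. Among windows of genes with a mean of at least 50 counts, 9.32% held it on either strand. Among the 90 windows of the most abundant genes, 16.7% did. Ambn, Amelx, Odam, Amtn and Enam are themselves among the most abundant genes by counts, so that share is not independent of these 5 genes. TATAAA, the TATA box, was in the windows of Amelx, Enam and Mmp20, which is 3 of 9 against 13.6% of all windows on either strand. TGATTGG was picked after these sequences were read, the matches describe letters, and no binding was measured.

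The genes of the secretory matrix had their lowest level in WT 1 and their highest in WT 2. Ambn had 38184, 68416 and 49721 CPM in WT 1, WT 2 and WT 3, scaled with TMM factors that remove the pull of a few abundant genes on a library. Amelx had 29325, 65099.7 and 53976 CPM. Enam, which encodes the large matrix protein enamelin, had 3274, 8310.5 and 6288 CPM. WT 2 was the highest library for all 3 genes, and the ratio of highest to lowest was 1.79 for Ambn, 2.22 for Amelx and 2.54 for Enam. Mmp20, the protease that cuts the matrix as it is secreted, followed the same order at 237, 509 and 332 CPM, with a ratio of 2.14. Of 12219 genes with a mean of at least 50 counts, 5.45% differed by at least 2-fold between the highest and the lowest WT library, and 4 of the 9 enamel genes did. On the secretory ameloblast list, 9 of 10 genes were highest in WT 2, where 34.8% of all genes tested were highest in that library. Fam83h, a keratin-organising protein of ameloblasts, was the exception at 112, 77.9 and 111 CPM.

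The genes of the maturation stage were not ordered in 1 way. Odam had 17100.2 FPKM in WT 1 and 11733 and 11549 in WT 2 and WT 3. Amtn, the gene of amelotin, had 6375, 8948 and 5679.9 FPKM. Klk4, the protease of the maturation stage, had 564, 789 and 612 FPKM. WT 1 was thus the highest library for Odam, and WT 2 for Amtn and Klk4, with ratios of 1.48, 1.63 and 1.45 on the CPM scale. Gm17660, entered in RefSeq with the synonym Scpppq1, had 2704, 809.9 and 1703 FPKM, with WT 2 lowest and a ratio of 3.44 in CPM. Exons of another annotated gene, Gm43333, cover 41.0% of its exonic bases, so its counts may be split. Gm1045 had 58.5, 53.6 and 41.0 FPKM. On the maturation list, 6 of 13 genes were highest in WT 2 and 4 of 13 were lowest there, beside 34.8% and 33.4% of all genes tested.

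**Figure D1:**
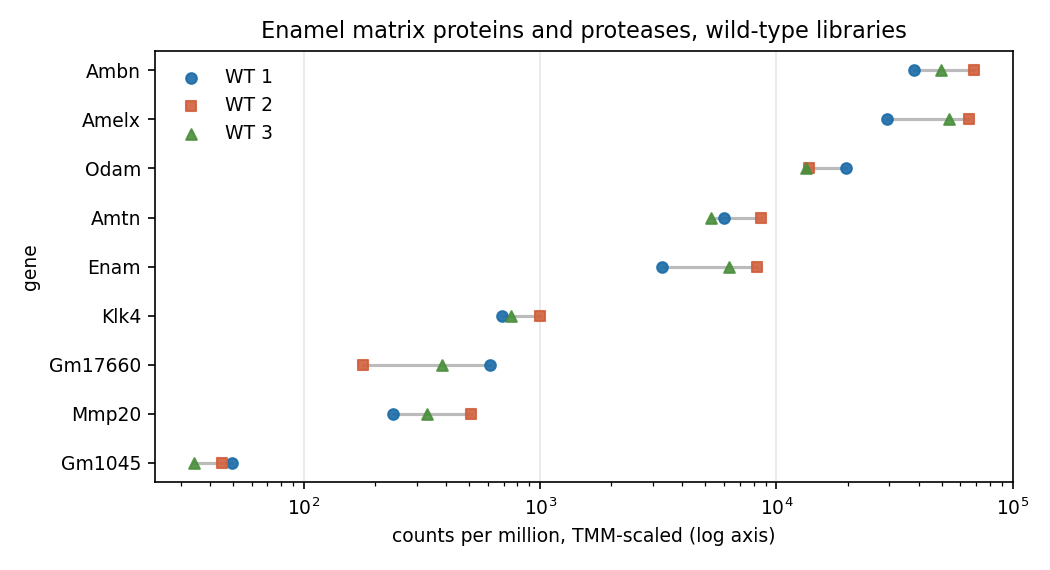
CPM (TMM-scaled counts, log axis) of the 9 enamel matrix and protease genes in each WT library, 1 point per library with a grey line from lowest to highest. Ambn, Amelx, Enam and Mmp20 are highest in WT 2 and lowest in WT 1, whereas Odam and Gm17660 are highest in WT 1.

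Odam, Amtn, Ambn and Enam lie together on chromosome 5, between 87885029 and 88506049 on GRCm38, a span of 621 kb. They held 6.82%, 9.46% and 7.69% of all counts in WT 1, WT 2 and WT 3. The annotation places 21 other genes in the span, and 16 of them had no count in any library. Csn3, which encodes kappa casein, was the 1 other gene with a mean of at least 50 counts, at 10.2 CPM. Chromosome 5 as a whole held 12.2%, 14.4% and 12.8% of counts with 6.43% of the genes tested. Amelx lies at 169176114 to 169187200 on chromosome X, on the minus strand, within the span of Arhgap6 on the plus strand but with no exonic base in common. Chromosome X held 5.19%, 8.30% and 7.58% of counts with 3.21% of the genes tested, and Amelx alone gave 2.98%, 6.22% and 5.56%.

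The FPKM tables held no usable value for Ambn and Amelx in 2 of the 3 libraries. In WT 2 and WT 3 both genes were listed at 0 with the status HIDATA, which Cufflinks assigns to a locus with too many fragments to process. In WT 1 they were listed at 23135 FPKM for Ambn and 45556 for Amelx. Arhgap6 and Hccs, at the Amelx locus, had the same failed status in the same libraries, together with the non-coding genes Gm27980 and Gm15261. Their counts were ordinary, at 21.6, 28.0 and 21.2 CPM for Arhgap6 and 23.2, 27.3 and 24.4 CPM for Hccs, so a listed 0 there is a failed estimate. Levels per kilobase computed from the counts, as RPKM, put Amelx first at 49249 ± 17144 (SD, n = 3) and Ambn next at 26990 ± 6924. On that per-length scale the library ranges of the 2 genes overlapped, at 29818 to 62240 for Amelx and 20212 to 34052 for Ambn. Both lay above the highest value of Odam, 14565.

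Among protein-coding genes with status OK in all 3 libraries and a mean of at least 50 counts, Odam had the highest FPKM, 13461 ± 3153 (SD, n = 3). Fth1 and Ftl1, the heavy and light chains of the iron store ferritin, had 7719 ± 1029 and 5530 ± 957 FPKM. Amtn lay between them at 7001 ± 1722. As RPKM from counts, Amtn stood at 6424, Ftl1 at 2303 and Fth1 at 1701, so the order of these genes depended on the measure. Clu, the secreted chaperone clusterin, had 4733 ± 999 FPKM, and Eef1a1, the elongation factor that brings tRNA to the ribosome, 3539 ± 515. Further down came Krt14, Krt5, the translation-linked protein Tpt1 (2207 ± 76.5), the ribosomal proteins Rplp1 (2091 ± 97.5) and Rpl41 (1757 ± 65.1), and Gm17660. The other 8 of the 20 highest protein-coding genes were mitochondrially encoded. Among them, mt-Atp8 held rank 2 at 10025 ± 298 FPKM but stood at 816 as RPKM. Of 19 neighbouring pairs in the FPKM order, 5 did not overlap in their library ranges and 14 did. Of those 14, 4 had the same gene higher in each library, and the other 10 had a mixed order. Fth1 and Amtn overlapped, for example, at 6532 to 8368 and 5679.9 to 8948 FPKM.

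**Figure D2:**
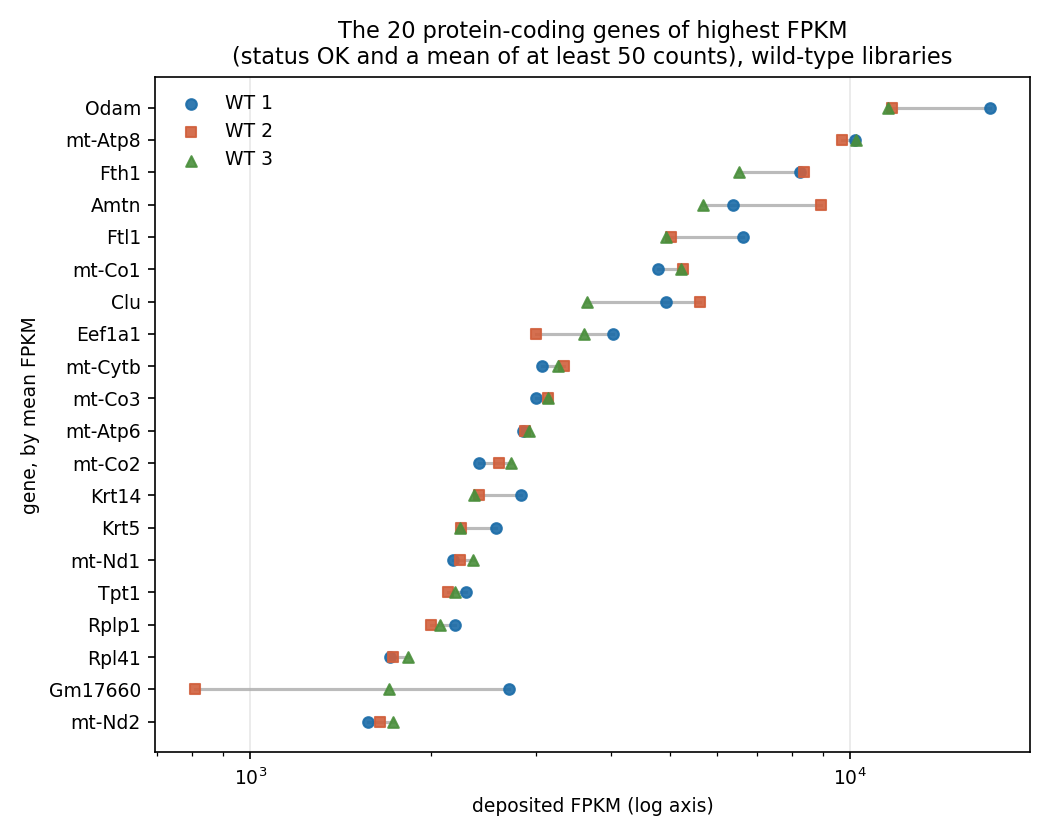
Deposited FPKM (log axis) of the 20 protein-coding genes with the highest mean, 1 point per WT library, among genes with status OK and a mean of at least 50 counts. Odam leads at 11549 to 17100.2 FPKM, and Gm17660 has the widest spread, from 809.9 to 2704 FPKM.

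FPKM and counts disagreed for a set of short, overlapping or duplicated genes. Of 731 genes at a mean FPKM of at least 100, 60 (8.21%) had a mean under 50 counts. These 60 had a median annotated length of 102 bases, against 2663 for the other genes, and included 32 miRNA genes and 14 protein-coding genes, of which 9 had exons in common with another gene. Gm17604 had the largest gap, at 397, 8082 and 14198 FPKM with 0, 1 and 2 counts over 75 bases. mt-Co3, a subunit of cytochrome oxidase, had 2991, 3132 and 3133 FPKM with 145, 125 and 105 counts. Nuclear copies on chromosome 1 had FPKM of the same order, 2907 for Gm10925 and 3739 for Gm29216. The same gap held for mt-Atp6 and mt-Co2, at 2881 and 2573 FPKM with 7.39 and 9.07 CPM, whereas mt-Co1 and mt-Cytb had 6397 and 3468 CPM. Values of these near-identical copies are uncertain in both tables. The 2 pseudogenes were picked after their values were seen.

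By abundance, 13380 genes had a mean of at least 1 FPKM, 7123 at least 10, 731 at least 100 and 60 at least 1000. Genes between 10 and 100 FPKM held 47.7% ± 1.52 of counts (SD, n = 3), those between 100 and 1000 held 23.1% ± 0.893, and those at 1000 or more 9.82% ± 0.561. Ambn and Amelx stood outside these bands because of their status. Protein-coding genes made up 89.5% of genes at 1 FPKM or more and 68.3% of those at 1000 or more. When levels were computed from counts and annotated length instead, 4528, 309 and 20 genes reached 10, 100 and 1000.

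Counts were concentrated in few genes. Ambn and Amelx together took 6.86%, 12.8% and 10.7% of the counts of WT 1, WT 2 and WT 3. The 10 highest genes took 13.1%, 18.9% and 16.1%, the 100 highest 26.5%, 31.5% and 28.8%, and the 1000 highest 54.0%, 57.0% and 54.5%. WT 2 was the most and WT 1 the least concentrated library at each of these sizes. The number of genes that made up 50% of a library's counts was 786, 629 and 749. No Wilson 95% interval of a share in these paragraphs reached further than 0.0213 percentage points to either side, and such intervals cover counting error only, since the fragments carried no molecular identifiers.

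Each gene was then placed in 1 of 29 classes by its symbol or biotype. Enamel matrix proteins and proteases, 9 genes, held 9.96%, 15.8% and 13.4% of counts, a mean of 13.1% ± 2.95 (SD, n = 3). Ambn, Amelx and Odam made 89.2% of that class. With length taken out, as reads per kilobase, the class held 28.7%. Leaving out 1 library at a time gave means from 11.7% without WT 2 to 14.6% without WT 1. Protein-coding genes outside any named class held 52.1%, 49.0% and 50.1%.

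By counts, transport came next among the named classes. Solute carriers, pumps and channels held 3.83%, 3.59% and 3.77% of counts, and 2.21% per length, which was below the ribosomal, mitochondrially encoded and nuclear respiratory chain classes. Atp2a2, the calcium pump of the endoplasmic reticulum, had 408, 492 and 387 FPKM. Kinases, phosphatases and G proteins held 3.23% ± 0.165 and RNA processing and chromatin genes 2.96% ± 0.0897. Cell junction and hemidesmosome genes held 2.62% ± 0.109, led by Gja1, the gap junction protein connexin 43, and Cldn1, a claudin of tight junctions. Those 2 genes had 3225 and 1895 CPM. Cytosolic ribosomal proteins held 2.56% ± 0.222 of counts and 4.69% per length. Mitochondrially encoded genes held 1.74%, 1.80% and 1.84%, with mt-Co1, mt-Cytb and mt-Nd5 giving 66.7% of the class. It held 4.53% per length and 10.4% of FPKM, and the few counts of mt-Co2, mt-Co3 and mt-Atp6 given above limit its count share.

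Collagens and other matrix proteins, products of connective tissue, held 2.32%, 1.75% and 2.49%, with WT 2 lowest. Iron storage and antioxidant genes held 1.77%, 1.51% and 1.46%, of which Fth1, Ftl1 and Gpx3 made 68.8%. Keratins held 0.971% ± 0.0811, with Krt5, Krt14 and Krt17 giving 92.5%. Long non-coding RNA held 0.722% ± 0.0193 over 8708 annotated genes. Skeletal muscle contractile genes held 0.0261%, 0.0285% and 0.0701%, and hemoglobin and erythroid genes 0.0145%, 0.0317% and 0.0453%. These 2 classes had the widest ratios between libraries of all 29, at 2.68 and 3.12. Without WT 3 the mean muscle share was 0.0273% in place of 0.0416%.

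**Figure D3:**
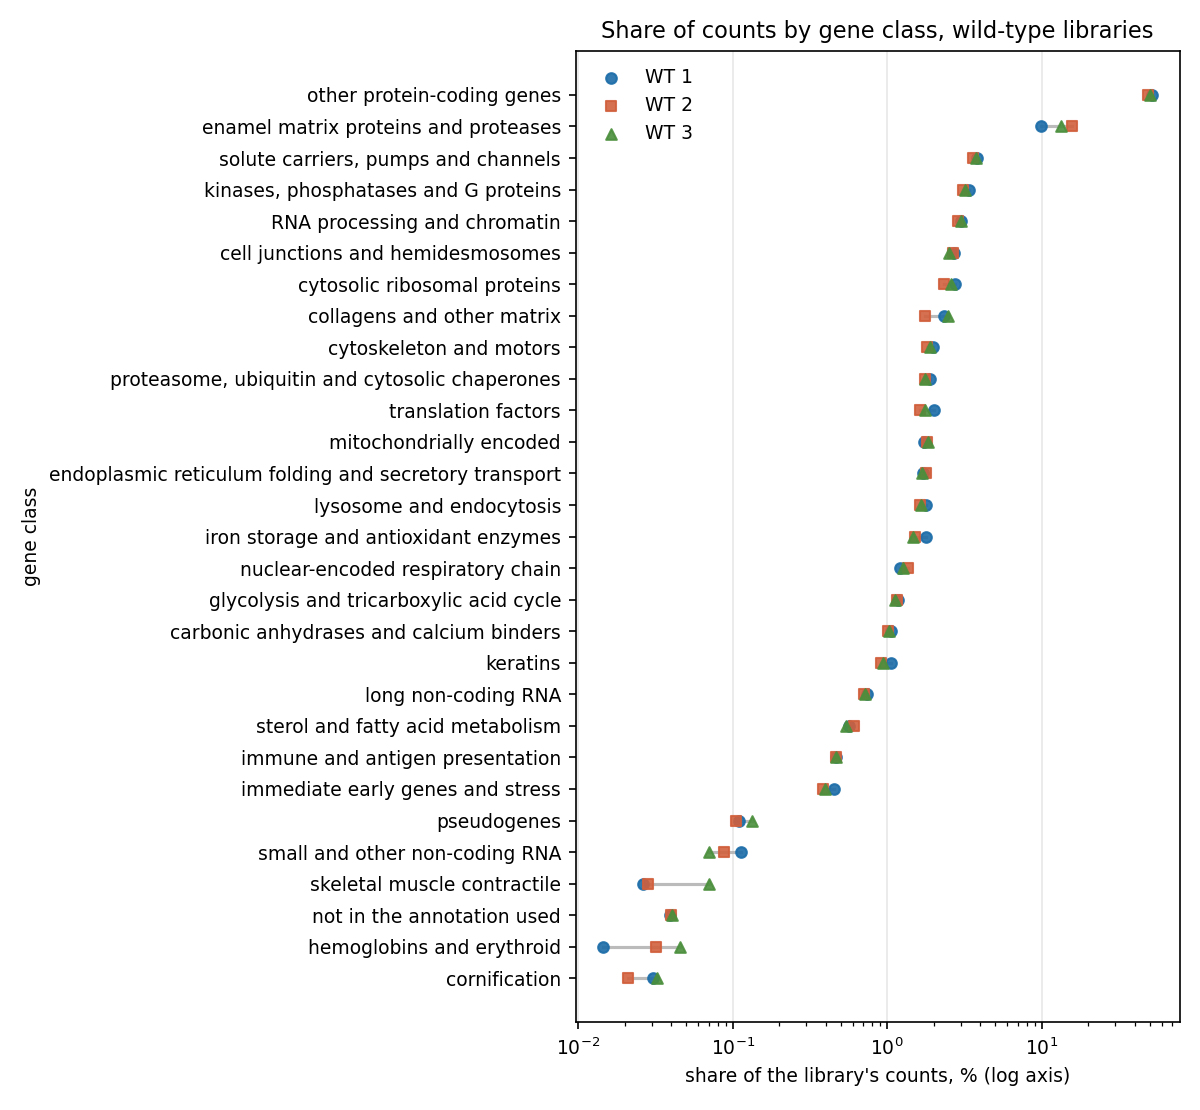
Share of each WT library's counts (percent, log axis) by gene class, 1 point per library with a grey line from lowest to highest. Enamel matrix proteins and proteases hold 9.96% to 15.8%, and the skeletal muscle and hemoglobin classes, both under 0.1%, spread the most.

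Transcription factors of the dental lineage were widely present. Of a list of 57 dental transcription factors, 56 were matched. Of these, 50 had a mean of at least 1 FPKM, beside 11972 of 21624 protein-coding genes. Id3 (151 ± 16.3 FPKM, SD, n = 3), Trp63 (128 ± 20.5) and Dlx3 (121 ± 8.86) were among the highest members of the list. Trp63 is the master regulator of stratified epithelia, Dlx3 a homeobox gene with a role in enamel formation, and Id3 an inhibitor of helix-loop-helix factors. Below them lay Id1 at 86.7, Xbp1 at 80.3, Msx2 at 78.1, Atf4 at 76.0 and Bhlhe40 at 65.7 FPKM. Of 51 factors with enough counts, 3 differed by at least 2-fold, which is 5.88% against 5.45% of all genes, a share near the background, and the median ratio was 1.38 against 1.20.

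The calcium handling list was led by a buffer, a pump and a chaperone. Calb1, the calcium buffer calbindin, had 805, 1045 and 653 FPKM and Calr, the calcium-binding chaperone calreticulin, 376, 407 and 380.3. Slc24a4, a sodium-calcium exchanger of maturation ameloblasts, had 262, 358 and 232 FPKM. Among the parts of store-operated calcium entry, the sensors Stim1 and Stim2 stood at 111 ± 15.7 and 109 ± 15.7 FPKM and their ranges overlapped. Among the channel subunits, Orai2 had 79.7 to 98.1 FPKM, which overlapped the range of Stim1, 95.7 to 127. Orai1 had 24.3 to 27.5 and Orai3 15.3 to 18.7 FPKM. As RPKM from counts, Orai2 stood at 49.5, above Stim1 at 41.3 and beside Stim2 at 51.6. On that scale Orai1 and Orai3 overlapped, at 15.9 to 18.9 and 14.3 to 18.1, so the order of Stim1 and Orai2, and of Orai1 and Orai3, depended on the measure. Itpr1, a calcium release channel, was the 1 gene of 26 tested on this list past 2-fold, at 31.0, 64.9 and 62.8 FPKM. That is 3.85% of the list beside 5.45% of all genes. WT 2 was the highest library for 16 of the 26 genes, where it was for 34.8% of all genes. It was for 12 of them when counts were scaled by library totals, where it was for 19.3% of all genes.

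Further genes of the maturation list included Car6, a secreted carbonic anhydrase, at 238, 264 and 271 FPKM. The bicarbonate and anion carriers Slc4a2 and Slc4a4 stood at 122 ± 14.7 and 90.5 ± 10.04 FPKM, with ratios of 1.25 and 1.28. Slc5a8, a monocarboxylate carrier, and Slc26a4, the anion exchanger pendrin, were uneven across the libraries. Slc5a8 had 2395, 107 and 2332 counts, or 103, 5.30 and 103 CPM, and Slc26a4 had 409, 50 and 748 counts. WT 2 lay below both other libraries for the pair.

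Genes listed for layers other than ameloblasts were also present, which does not by itself show that those layers were captured. Of the stratum intermedium and papillary layer list, Gja1 (985 ± 74.7 FPKM) and Alpl, the alkaline phosphatase of mineralising tissue (737 ± 205), led. Alpl is on the maturation ameloblast list as well. Notch2 and Jag1, a receptor and a ligand of Notch signalling, had 47.0 ± 4.48 and 27.6 ± 2.07 FPKM. Shh, a secreted morphogen, had 16.4, 50.3 and 28.6 CPM and was the 1 gene of 10 tested past 2-fold, beside 5.45% of all genes. Exons of other genes cover 28.3% of its exonic bases. Of 7 stem cell genes, 5 had a mean of at least 1 FPKM, where 11972 of 21624 protein-coding genes did. The sum of the 7 genes was 848, 1224 and 1476 CPM. Igfbp5, a binding protein of insulin-like growth factors, gave most of it at 112, 157 and 204 FPKM, with WT 1 lowest. Sox2, a stem cell transcription factor, had 1.74, 1.60 and 1.69 FPKM, and Lgr5, a receptor of stem cells in several epithelia, 0.109 ± 0.0600 (SD, n = 3) from 4, 3 and 11 counts. Of 31 proliferation genes, 17 reached a mean of 1 FPKM, a share near that of all protein-coding genes. Pcna was the highest at 37.4 ± 2.55, and the summed level was 295, 273 and 247 CPM.

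Among long non-coding RNA, Gm26809 had the most counts at 1456, 1171 and 884 CPM, followed by Xist. Neat1 and Malat1, 2 nuclear-retained RNA, were highest in WT 3. Neat1 had 369, 347 and 586 CPM and Malat1 156, 236 and 611 CPM. Of 261 long non-coding genes tested, 130 were highest in WT 3, where 27.8% of all genes were, and 142 were with scaling by library totals, where 37.1% of all genes were. Of these 261 genes, 16.1% differed by at least 2-fold, beside 5.45% of all genes. Rn18s-rs5, annotated as ribosomal RNA sequence, had 659, 499 and 417 CPM, and other genes cover 73.9% of its exonic bases.

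Most genes varied little among the 3 libraries. The median ratio of highest to lowest library was 1.20, and 83.4% of the 12219 genes tested stayed under 1.5-fold. The median coefficient of variation was 9.51%, where counting error alone gives a median of 3.87%. The common dispersion of edgeR corresponded to a coefficient of variation of 18.05% between libraries beyond counting error. The steadiest gene with at least 50 CPM was Mical3, a cytoskeletal oxidoreductase, at 165.4, 165.3 and 165.6 CPM. Brox, Hacd2, Stau1, Rnpepl1 and Ech1 followed, each with a coefficient of variation of at most 0.322%. These genes were picked for the smallest values of this same measure among many genes. The values lie below the median counting error of 3.87%, so they do not show that these genes are steadier than others. Among common reference genes, Actb had 403, 412 and 424 FPKM and Gapdh 1106, 1184 and 1090.2. In CPM, Hprt differed by a ratio of 1.26, Eef1a1 by 1.31 and B2m by 1.34. Tbp, with 434, 400 and 450 counts, differed by 1.06 in CPM but had 13.2, 9.69 and 13.7 FPKM.

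Past 2-fold lay 666 genes, and past 10-fold 51, or 0.417% of genes, after 0.1 CPM was added to each value. By which library stood furthest from the other 2, 212 of the 666 were low in WT 2, 155 low in WT 1, 136 high in WT 3, 66 high in WT 1, 50 low in WT 3 and 47 high in WT 2. The share past 2-fold was 7.69% among genes of 1 to 10 FPKM, 2.39% among those of 10 to 100, 3.85% among those of 100 to 1000 and 12.8% among the 47 tested at 1000 or more. Of 171 genes with a mean of at least 500 CPM, 8 (4.68%) were past it. These were Xist, Slc40a1, Pam, Papln, Anxa8, Slc39a8, Enam and Amelx.

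**Figure D4:**
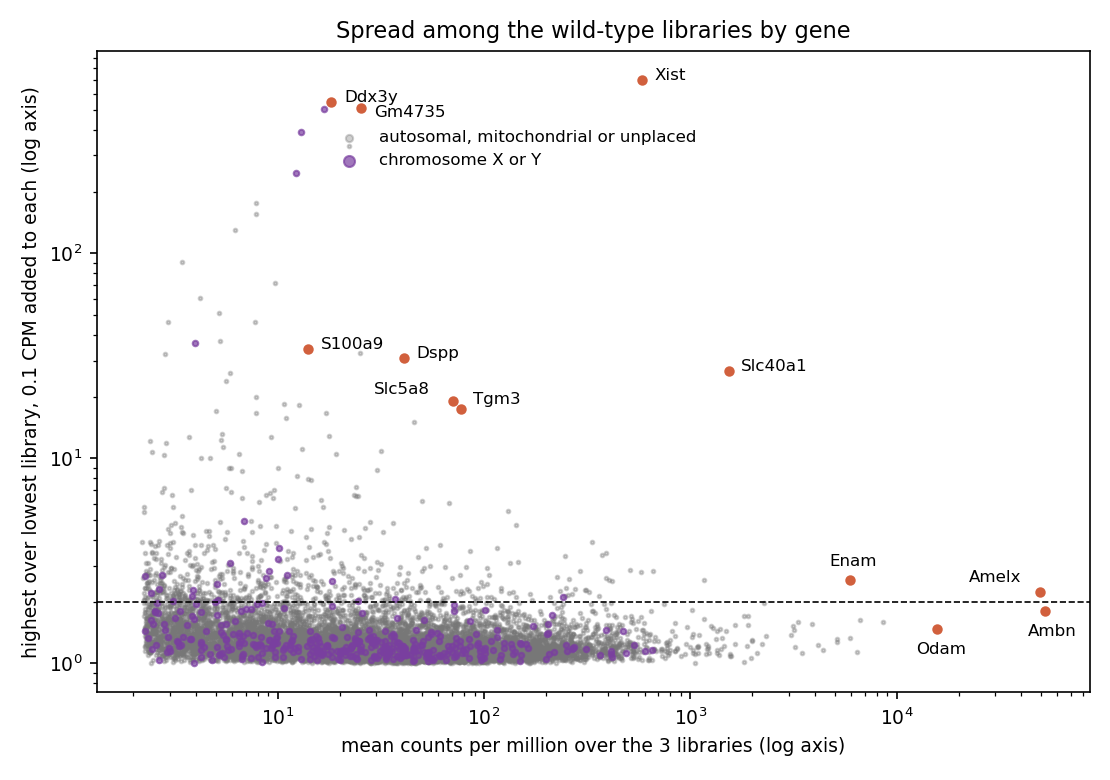
Ratio of the highest to the lowest WT library (0.1 CPM added, log axis) against mean CPM (log axis) for the 12219 genes tested, with genes of chromosomes X and Y in purple, genes given by name in orange and the dashed line at 2-fold. Under 1.5-fold lie 83.4% of the genes, and Slc40a1, at a mean of 1533 CPM, has a ratio of 26.6.

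Slc40a1, the gene of the iron exporter ferroportin, had the largest spread of any autosomal gene with a mean of at least 500 CPM. It had 42748, 2012 and 60356 counts, or 1843, 99.7 and 2655 CPM, and in FPKM 609, 35.9 and 901. WT 2 lay far below the other 2 libraries, which differed from each other by less than that gap. Slc39a8, a zinc and iron importer, was lowest in WT 2 as well, at 1629, 639 and 1213 CPM. Anxa8, a membrane-binding annexin, had 764, 275 and 696 CPM, and Pam, which amidates peptide hormones, 647, 228 and 651 CPM. Papln, the matrix protein papilin, had another order at 299, 829.96 and 839.9 CPM, with WT 1 low. Fth1, at 6296, 6528 and 4925 CPM, did not follow Slc40a1. Tgm3, a transglutaminase of epithelial barriers, had 2004, 156 and 3110 counts, and Cdo1, a cysteine dioxygenase, had 1417, 94 and 1618. Ifi202b, an interferon-inducible gene, had 850, 21 and 845 counts, and Gsta3, a glutathione transferase, had 610, 53 and 649. In all 4 WT 2 was lowest and the ratio of highest to lowest was over 10. Pam, Papln, Slc39a8, Tgm3, Cdo1, Ifi202b and Gsta3 were picked after their values were seen.

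WT 2 was also lowest for connective tissue. Col1a1, a chain of the main collagen of bone, dentine and skin, had 562, 376 and 619.9 FPKM, and Col3a1 505, 278 and 578. All 15 mesenchyme genes were lowest in WT 2, where 33.4% of all genes were, and the summed level was 11698, 7780.1 and 12930 CPM. Of 12 endothelium genes, 11 were lowest in WT 2, and of 15 leukocyte genes tested 12 were. These 3 counts were 15, 11 and 14 with scaling by library totals, where 52.2% of all genes were lowest in WT 2. The endothelial sum ran from 359 to 479 CPM and the leukocyte sum from 300.1 to 439. No mesenchyme, endothelium or leukocyte marker was at 0. The part of these cells in the other differences of WT 2 was not tested.

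Markers of muscle, red cells and neutrophils also differed between the libraries. Skeletal muscle genes summed to 94.1, 149 and 434 CPM, with 13 of 13 tested genes highest in WT 3, where 27.8% of all genes were. Past 2-fold were 12 of the 13, beside 5.45% of all genes. Acta1, the actin of muscle fibres, had 387, 610 and 2365 counts. Tnnc2, a muscle troponin, had no count in any library but 8.22, 12.1 and 50.8 FPKM, and 74.0% of its exonic bases lie in Ube2c. Erythroid genes summed to 143, 332 and 439 CPM and all 5 tested were highest in WT 3 and lowest in WT 1, where 29.4% of all genes were lowest. Neutrophil genes summed to 2.63, 91.0 and 43.9 CPM. All 5 tested were highest in WT 2, where 34.8% of all genes were, and lowest in WT 1. S100a9, a calcium-binding protein abundant in neutrophils, had 17, 570 and 303 counts, and Retnlg had 0, 72 and 56. The part of muscle, red cells and neutrophils in other differences was not tested.

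Oral keratinocyte genes summed to 496, 293 and 454 CPM, which came mostly from Krt6a at 425, 235 and 339 CPM. Krt4 and Krt13, the keratin pair of inner oral epithelium, had another order, with 18, 109 and 395 counts for Krt4 and 8, 121 and 239 for Krt13. Dspp, the dentine matrix gene of odontoblasts, had 514, 1958 and 69 counts, or 22.2, 97.0 and 3.04 CPM. The sum of the odontoblast and osteoblast list was 502, 567 and 461 CPM. Osteoclast genes Ctsk and Acp5 were highest in WT 3, at 34.1, 18.4 and 46.3 FPKM for Ctsk and 16.6, 14.7 and 32.5 for Acp5. Of the 8 genes on the osteoclast list, 5 had a mean below 1 FPKM. The 3 tested were all highest in WT 3, where 27.8% of all genes were. Nerve and Schwann genes summed to 96.9 to 114 CPM, with Nefl and Prph without a count.

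**Figure D5:**
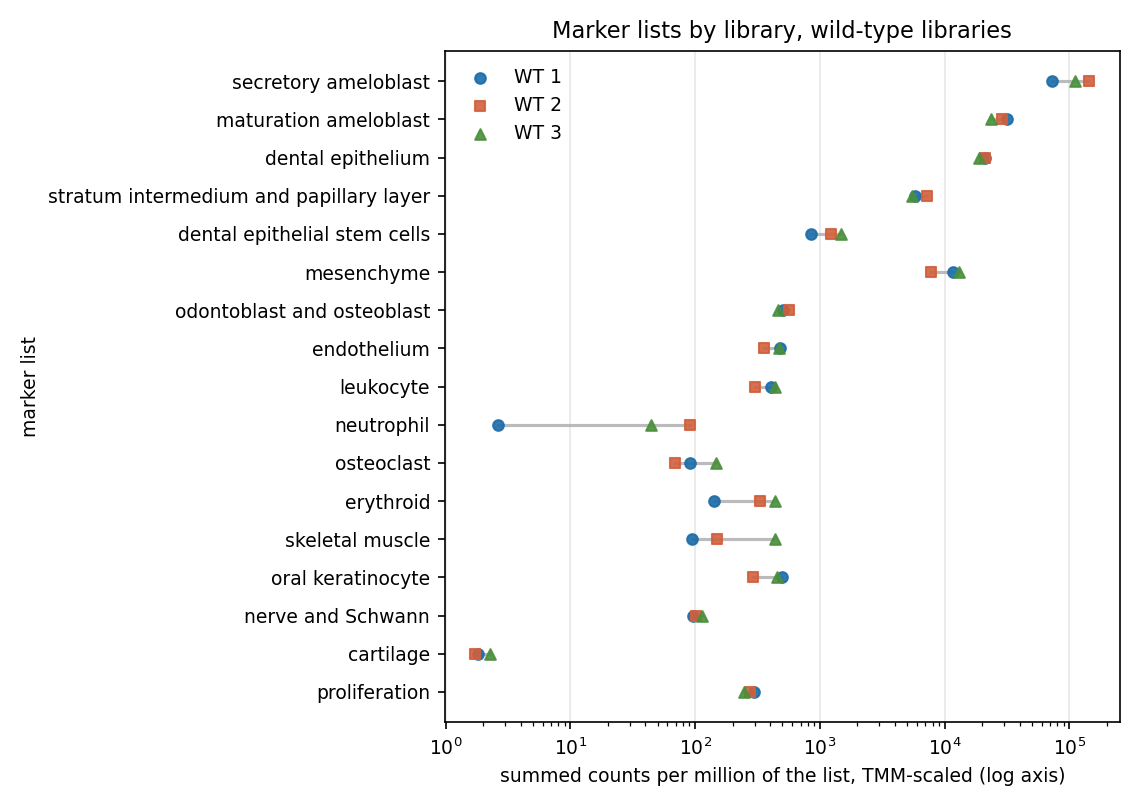
Summed CPM (TMM-scaled, log axis) of 17 marker lists in each WT library, 1 point per library with a grey line from lowest to highest. Dental epithelium differs by a ratio of 1.12 and neutrophil genes by 34.6, while mesenchyme is lowest in WT 2 and muscle highest in WT 3.

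Genes that were nearly off in 1 or 2 libraries made up the rest of the widest spread. Gm4735, an annotated pseudogene, had 5, 1 and 1727 counts, and Eno1b, a copy of the enolase gene Eno1, had 3, 2 and 1500. Eno1 itself had 13983, 12120 and 8359 counts, so WT 3 was lowest for it. Rps26-ps1, a pseudogene of the ribosomal protein Rps26, had 5, 1 and 529 counts, and Rps26 had 271, 254 and 216 CPM. Near-identical copies share fragments, so the division of counts within such pairs is uncertain. Gm13225 had 1, 1 and 420 counts and 2610305D13Rik had 13, 6 and 643. Gm13010, a non-coding gene, had 137, 355 and 0 counts. RP23-57A17.2, a pseudogene, had 350, 4 and 5, and Gm15446 had 106, 4 and 251. Over all 51 genes past 10-fold, WT 3 was the library apart as the high one in 18, of which 4 were Y-linked, and as the low one in 7. WT 1 was apart as the high one in 1 and the low one in 13, and WT 2 as the low one in 12. Ighg2c, an antibody heavy chain, had 0, 27 and 203 counts, Lcn2 and Ngp of neutrophil granules had 1, 173 and 90 and 6, 334 and 148, and AK157302 had 0, 91 and 99, with WT 1 lowest in all 4.

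Some classes and lists, most with small differences, had the same library highest or lowest in a larger share of genes than over all genes. Scaling by library totals in place of TMM moved the median gene by up to 0.11 on the log2 scale between libraries, so the share over all genes stands beside each count. Of 91 nuclear-encoded respiratory chain genes, 84 were highest in WT 2, where 34.8% of all genes were. With scaling by library totals 72 were, beside 19.3% of all genes. Their share of counts was 1.21%, 1.36% and 1.26%, led by the ATP synthase subunits Atp5b and Atp5a1. Of 79 ribosomal protein genes, 68 were highest in WT 1, where 37.4% of all genes were, and 59 were lowest in WT 2, where 33.4% were. None of the 79 was past 2-fold, where 5.45% of all genes were. With scaling by library totals these counts were 69 and 75, beside 43.6% and 52.2% of all genes. Of 132 genes of endoplasmic reticulum folding and secretory transport, 96 were highest in WT 2, where 34.8% of all genes were. With scaling by library totals 53 were, or 40.2% of the class, beside 19.3% of all genes. Of 20 immediate early genes, 12 were highest in WT 1, where 37.4% of all genes were. With scaling by library totals 12 were as well, beside 43.6% of all genes. Among them were Egr1 at 73.7, 37.1 and 36.3 CPM and Nr4a1 at 33.4, 12.5 and 19.97 CPM. Both are transcription factors induced within minutes by stimuli or handling. Of 13 heat shock genes, none was past 2-fold, where 5.45% of all genes were, and 10 were lowest in WT 3, where 37.1% of all genes were. With scaling by library totals 7 were lowest there, beside 23.5% of all genes.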

How the data were processed

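Whole-number counts per Ensembl gene and Cufflinks gene tables in FPKM, with a status per gene, were used as deposited, per the file headers. The submitters' processing notes list Trimmomatic 0.32, Cufflinks 2.2, HTSeq and the build GRCm38 without a role. The sources used here name no aligner, gene models or counting options. FPKM rows of the same gene were summed (66 rows). Lengths, positions and biotypes came from GENCODE vM21 for 46091 of 46603 genes. Counts were scaled to CPM with TMM factors (edgeR 4.0.16, R 4.3.3), and DESeq2 1.42.0 size factors were an alternative. Shares are of deposited counts. The spread is the ratio of the highest to the lowest library after 0.1 CPM was added, for genes with a mean of at least 50 counts, and its computation was checked on simulated counts. The named genes are the 20 of highest FPKM, those with failed status, the 12 widest and 6 steadiest, leading members of each class, list and long non-coding RNA, 10 transcription factors and a fixed set of enamel, calcium and reference genes. A minimum of 50 counts was added for the 20 of highest FPKM, and genes outside the rule were picked after their values were seen. Members, classes and lists were chosen with earlier results of these data known. Some genes that the rule names are not reported here. Classes go by symbol and are approximate. No hypothesis test was run, since 1 group has no contrast.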

Additional observations from a re-analysis of the deposited data

How the results depend on the processing

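Numbers of genes at 1, 10, 100 and 1000 FPKM stayed within 1.5 times of those given when the level had to be reached in each library, when genes of any status were kept, when genes under 50 counts were dropped (an alternative chosen after seeing the data) and without each library. From counts and annotated length, 4528, 309 and 20 genes reached 10, 100 and 1000, and the cause was not tested. As shares of reads per kilobase, the top 2, 10, 100 and 1000 genes held 22.6%, 33.9%, 48.1% and 70.3%, and the enamel class 28.7%. Without 1 library the top 2, 10, 100 and 1000 held 8.77% to 11.7%, 14.6% to 17.5%, 27.7% to 30.2% and 54.3% to 55.8%, and among protein-coding genes without mitochondrial ones the shares moved by less than 1 SD. The enamel class held 3.97% of FPKM over genes with status OK, which leaves out Ambn and Amelx. Of 29 class shares, 27 moved by more than 1 SD per kilobase and 24 on FPKM, and none did with pooled counts. Leaving out 1 of 3 libraries cannot move a mean by 1 SD, so it says nothing of stability here. Genes past 2-fold numbered 1628 with a mean of at least 10 counts, 170 with at least 500, 710 with library totals (633 in common with the 666), 663 with DESeq2 factors (662 in common) and 700 on FPKM (557 in common). Without 1 library they numbered 313 (without WT 2) to 380 (without WT 3), from pairs in place of triplets. The common dispersion, as a coefficient of variation, was 19.5% with a mean of at least 10 counts and 17.4% to 18.4% without 1 library. Of 65 named genes, 51 had a level from counts that differed from the FPKM by more than 1 SD, and 60 were lower. No paired analysis was possible because there was 1 group and no test. Depth limits genes with few counts, and 3 libraries limit the rest.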
